A study of Mus musculus with 32 samples.

Results

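The genes described here are 48 genes of the cell cycle and of DNA replication in the lungs of newborn mice. They were chosen by symbol, under a rule that names genes and uses no measured value, though with earlier results of these data known. All 48 were found among 46165 gene records, of which 18853 held exon reads. In 18 of them the product prepares or carries out the copying of DNA, and these are called the replication genes. The other 30 act in mitosis or in its control and are called the mitosis genes. All 48 passed the filter on low counts in the fits of exon reads.

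A dividing cell first loads the MCM helicase onto origins of replication in G1, a step called licensing, and then fires these origins in S phase, when nucleotide supply enzymes and the replisome are needed. It then builds up mitotic cyclins with their kinase Cdk1, condenses and aligns its chromosomes under the watch of the spindle checkpoint, and divides when the anaphase-promoting complex destroys the cyclins. Replication genes are in large part transcribed under E2F factors, and mitosis genes under a DREAM and B-Myb/FoxM1 system that acts later in the cycle. In rodents the lung forms its alveoli after birth, and many of its cells still divide in the first days of life.

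RNA came from the whole lungs of C57BL/6 pups, perfused with PBS, in 32 libraries of polyadenylated, stranded RNA with 4 libraries in each of 8 groups. Of the 5 groups killed at postnatal day 14, one received saline daily from day 1 to day 13 (25 µl per g), 2 received a scrambled LNA oligonucleotide (scrambled 1 or scrambled 2, at 10 mg per kg in nuclease-free water, on days 1 and 3), one received that water alone on the same days (10 µl per g), and one was untreated. Of the 3 groups killed at day 6, one received 0.4 mg of tamoxifen in 25 µl of Miglyol, one 25 µl of Miglyol, a triglyceride oil, and one 25 µl of saline, each on days 1 and 2. All injections were into the peritoneum. No treatment was given at both ages, and pups were killed with isoflurane at day 14 and pentobarbital at day 6, so age, the injections and the anaesthetic cannot be told apart. The labels name no genotype beyond the strain and do not tie the samples to separate animals, so a p-value here weighs a difference against sample-to-sample spread alone, part of which may be technical.

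Libraries held 7918537 to 12443221 exon reads, with reads in 16211 to 16834 genes. None of the 48 same-group pairs was close enough to be 1 library deposited again. Markers of the labelled tissue were high in every library, where 12 lung epithelium markers summed to 19100 to 25500 CPM (reads scaled to library size with TMM factors) at day 14 and 17100 to 25400 CPM at day 6. Water replicate 3 stood apart by skeletal muscle markers, which summed to 427 CPM there and to at most 21.03 CPM in every other day 14 library. It was also the highest day 14 library for fat markers (561 CPM, against at most 129 CPM in the others), thymocyte markers (109 against at most 85.3 CPM), T and NK cell markers (69.9 against at most 51.6 CPM) and neutrophil and myeloid precursor markers (26.5 against at most 15.4 CPM), and the lowest for endothelium markers. Tamoxifen replicate 3 was the highest library of its group for 47 of 48 members. Its 30 mitosis genes summed to 2503 CPM, inside the Miglyol range of 2038 to 2518 CPM. Counts and medians of the members in the tamoxifen comparisons are given with and without this library.

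Promoter sequences show what the members share beyond the rule. In the RefSeq promoter table of GRCm38.p6, which gives 250 bases before and 50 after a gene's start, 38 of the 48 members had an entry (14 replication and 24 mitosis genes). Words of the E2F type were TTCCCGC, the closely related TTCGCGC, a further variant TTGCCGC and its neighbour TTGGCGC, each searched on both strands. They stood in 8 of 14 replication promoters (57.1%) and in 3 of 24 mitosis promoters (12.5%), beside 10.9% of all 27025 genes in the table. The CHR word (TTTGAA or TTCGAA, on either strand), the cell cycle genes homology region through which DREAM and B-Myb/FoxM1 act, was placed the other way round, in 2 of 14 replication promoters (14.3%) and in 18 of 24 mitosis promoters (75%), beside 21.7% of all genes. The CCAAT box, which binds NF-Y, stood in 8 of 14 replication promoters (57.1%), in 19 of 24 mitosis promoters (79.2%) and in 41.1% of all genes. A CHR word together with a CCAAT box was found in 17 of 24 mitosis promoters (70.8%), in 2 of 14 replication promoters (14.3%) and in 9.65% of all genes. Words of different kinds shared bases in 3 of the 40 member promoters, since 2 members have 2 entries. A match is a description of letters in a window and not a bound site. The entries for Aurkb, Ccna2, Ccne2, Cdc25c, Foxm1, Gins1, Gins2, Kif20a, Mcm4 and Tpx2 are missing.

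The next 6 sequences are the 250 bases before the start of the 3 replication genes with an E2F-type word, and of the 3 mitosis genes with a CHR word, that changed most between the ages. They are shown to let the words be seen in place, and capitals mark every E2F-type word, CHR word and CCAAT box on either strand. Coordinates are those of GRCm38.p6.
Cdc6, chr11:98907901-98908150, + strand: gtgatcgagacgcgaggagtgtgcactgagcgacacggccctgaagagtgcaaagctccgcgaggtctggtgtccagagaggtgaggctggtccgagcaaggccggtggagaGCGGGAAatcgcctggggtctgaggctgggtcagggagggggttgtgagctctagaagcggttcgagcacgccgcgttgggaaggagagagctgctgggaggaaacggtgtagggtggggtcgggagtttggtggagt
Rrm2, chr12:24708004-24708253, + strand: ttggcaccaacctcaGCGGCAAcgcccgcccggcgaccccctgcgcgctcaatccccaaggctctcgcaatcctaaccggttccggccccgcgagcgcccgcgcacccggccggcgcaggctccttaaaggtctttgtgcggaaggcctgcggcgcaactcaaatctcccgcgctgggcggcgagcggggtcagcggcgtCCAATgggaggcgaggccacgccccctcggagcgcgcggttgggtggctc
Mcm5, chr8:75109259-75109508, + strand: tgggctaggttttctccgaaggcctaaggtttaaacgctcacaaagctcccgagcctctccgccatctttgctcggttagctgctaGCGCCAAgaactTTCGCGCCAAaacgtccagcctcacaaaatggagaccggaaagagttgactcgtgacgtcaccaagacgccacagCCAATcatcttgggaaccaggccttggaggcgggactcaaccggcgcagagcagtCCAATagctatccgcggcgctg
Kif2c, chr4:117178773-117179022, - strand: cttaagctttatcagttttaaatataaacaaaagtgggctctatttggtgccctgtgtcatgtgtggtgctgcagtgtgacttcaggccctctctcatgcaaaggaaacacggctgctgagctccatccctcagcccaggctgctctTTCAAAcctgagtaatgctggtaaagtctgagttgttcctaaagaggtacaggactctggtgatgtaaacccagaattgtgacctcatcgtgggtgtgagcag
Prc1, chr7:80294226-80294475, + strand: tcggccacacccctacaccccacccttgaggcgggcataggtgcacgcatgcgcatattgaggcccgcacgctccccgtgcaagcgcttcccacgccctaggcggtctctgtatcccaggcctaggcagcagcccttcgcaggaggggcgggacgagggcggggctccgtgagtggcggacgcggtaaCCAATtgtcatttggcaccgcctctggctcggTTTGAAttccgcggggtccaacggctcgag
Ube2c, chr2:164769679-164769928, + strand: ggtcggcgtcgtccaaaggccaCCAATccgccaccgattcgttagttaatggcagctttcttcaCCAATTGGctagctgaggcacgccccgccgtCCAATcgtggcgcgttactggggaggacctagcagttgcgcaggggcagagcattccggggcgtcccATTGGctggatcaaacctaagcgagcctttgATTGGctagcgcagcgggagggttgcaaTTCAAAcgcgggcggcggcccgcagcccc

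In Mcm5, which encodes a subunit of the MCM helicase, 3 E2F-type words lie between 164 and 143 bases before the start, and the second and the third share bases. In Prc1, whose product bundles microtubules in the dividing cell's midzone, a CCAAT box at 62 to 58 bases before the start is followed by the CHR word at 30 to 25 bases. Ube2c, the ubiquitin-conjugating enzyme of the anaphase-promoting complex, has its CHR word at almost the same place, 29 to 24 bases before the start, on the opposite strand. It lies behind 6 CCAAT boxes counted on both strands, of which those at 186 to 182 and 183 to 179 bases share bases. The starts used for Kif2c and Cdc6 lie 3852 and 442 bases inside the RefSeq gene, so for these genes the window covers an inner start.

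Between the ages every one of the 48 members was lower at day 14. Across all 32 libraries in 1 edgeR quasi-likelihood fit (Benjamini-Hochberg adjusted p under 0.05 over 14406 genes), 48 of 48 members fell and none rose, beside 31.3% of all tested genes that fell. The median log2 fold change, day 14 over day 6, was -1.48 for the 18 replication genes (2.79-fold lower) and -1.92 for the 30 mitosis genes (3.78-fold lower), while the median over all tested genes was -0.006. When the test asked for a change of more than 1.5-fold, 48 of 48 members still fell, beside 4.53% of all genes. In whole lung RNA, fewer cells in cycle and less of these transcripts per cell cannot be told apart.

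**Figure D1:**
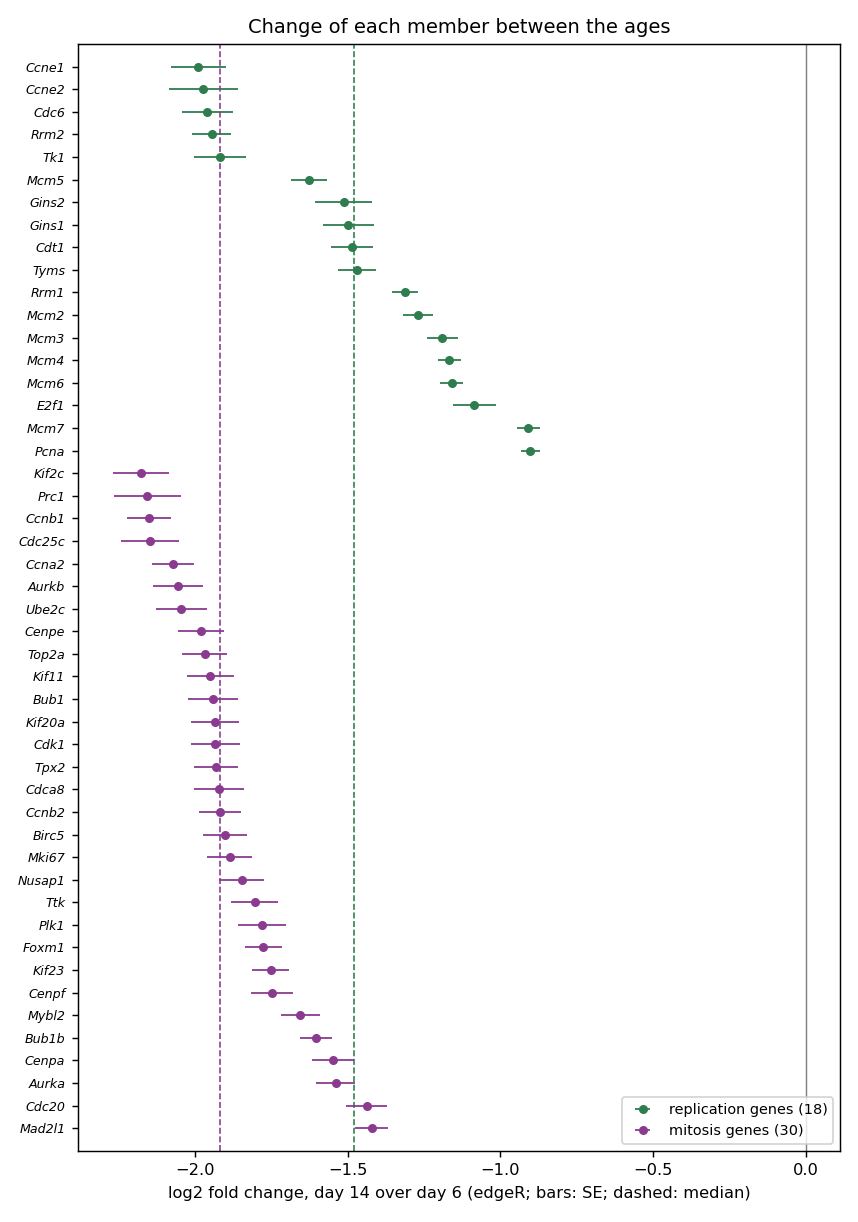
Log2 fold change of each member, day 14 over day 6, from edgeR, on the horizontal axis, with bars for the SE and dashed lines at the median of the replication genes (green) and of the mitosis genes (purple). Every member lies left of 0, from -0.90 in Pcna to -2.18 in Kif2c, and the median is -1.48 for replication genes and -1.92 for mitosis genes.

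The summed level shows the same order library by library. The 30 mitosis genes together took 437.8 to 736.6 CPM in the day 14 libraries and 1575 to 2518 CPM in the day 6 libraries, with means of 572.4 ± 77.6 CPM (SD, n = 20) and 2108 ± 298 CPM (SD, n = 12). The 18 replication genes took 393 to 527 CPM at day 14 and 919 to 1219 CPM at day 6, with means of 445 ± 32.4 and 1080 ± 101 CPM. No day 14 library reached the lowest day 6 library in either sum. The mitosis sum divided by the replication sum was 1.28 ± 0.121 at day 14 and 1.95 ± 0.201 at day 6, and here the ages just met, since scrambled 2 replicate 1 had a ratio of 1.60 and tamoxifen replicate 4 a ratio of 1.57.

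**Figure D2:**
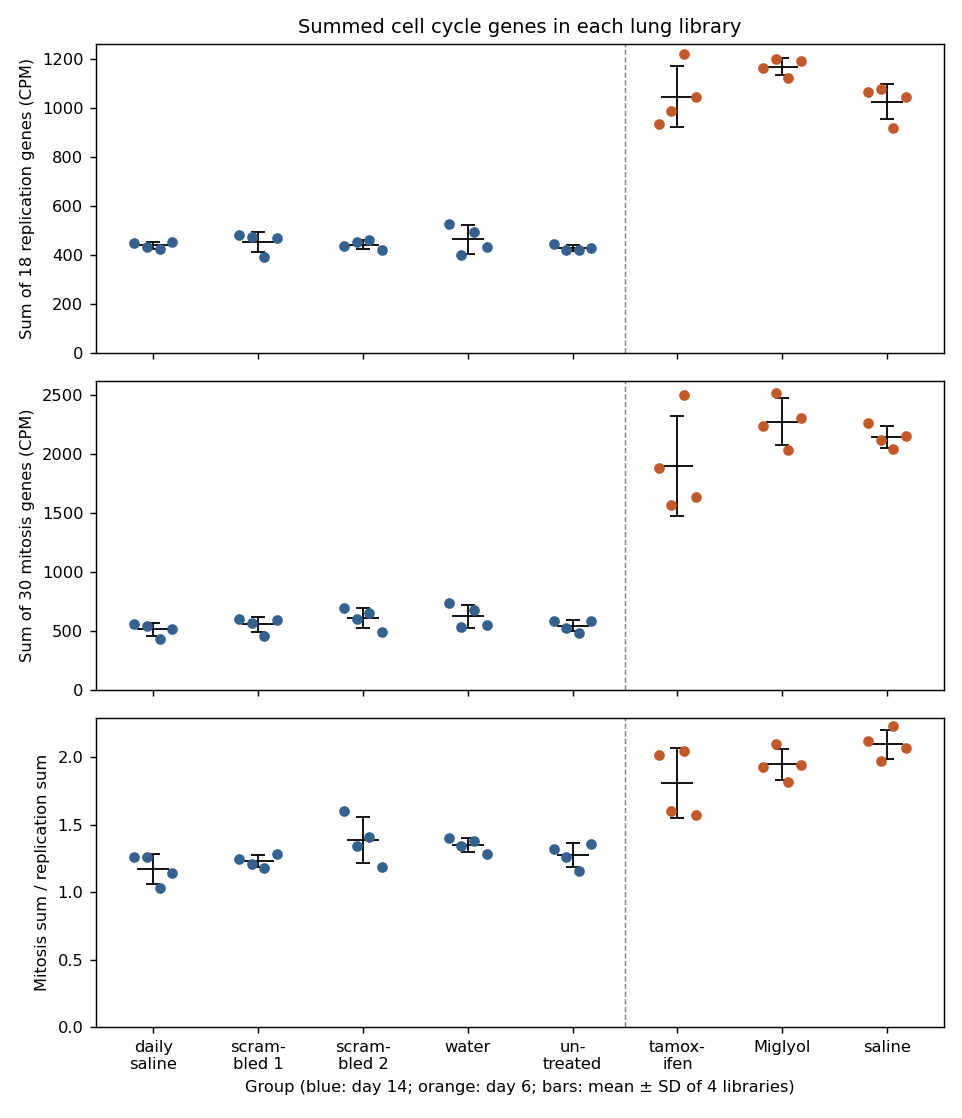
Summed CPM of the 18 replication genes (top), of the 30 mitosis genes (middle) and their ratio (bottom) in each library, by group, with day 14 groups in blue and day 6 groups in orange, each point a library and the bars mean ± SD of 4 libraries. The highest day 14 library is at 527.4 CPM for replication and at 736.6 CPM for mitosis, under every day 6 library, and tamoxifen replicate 3 is the highest library of its group in both sums.

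Single libraries overlapped in 1 gene only. For 47 of 48 members the 20 libraries of day 14 all lay below the 12 of day 6, beside 4.8% of all tested genes. The exception was E2f1, where water replicate 1 (17.9 CPM) lay above tamoxifen replicate 1 (17.3 CPM). Each of the 15 pairs of a day 14 group with a day 6 group, which share groups with one another, gave 48 members that fell, with medians of -1.71 to -1.26 for replication genes and -2.17 to -1.64 for mitosis genes. Intron reads, a separate count in the same libraries, had 46 members past the filter, of which 46 fell, beside 21.5% of the genes tested there, with medians of -1.34 for replication genes and -1.79 for mitosis genes.

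**Figure D3:**
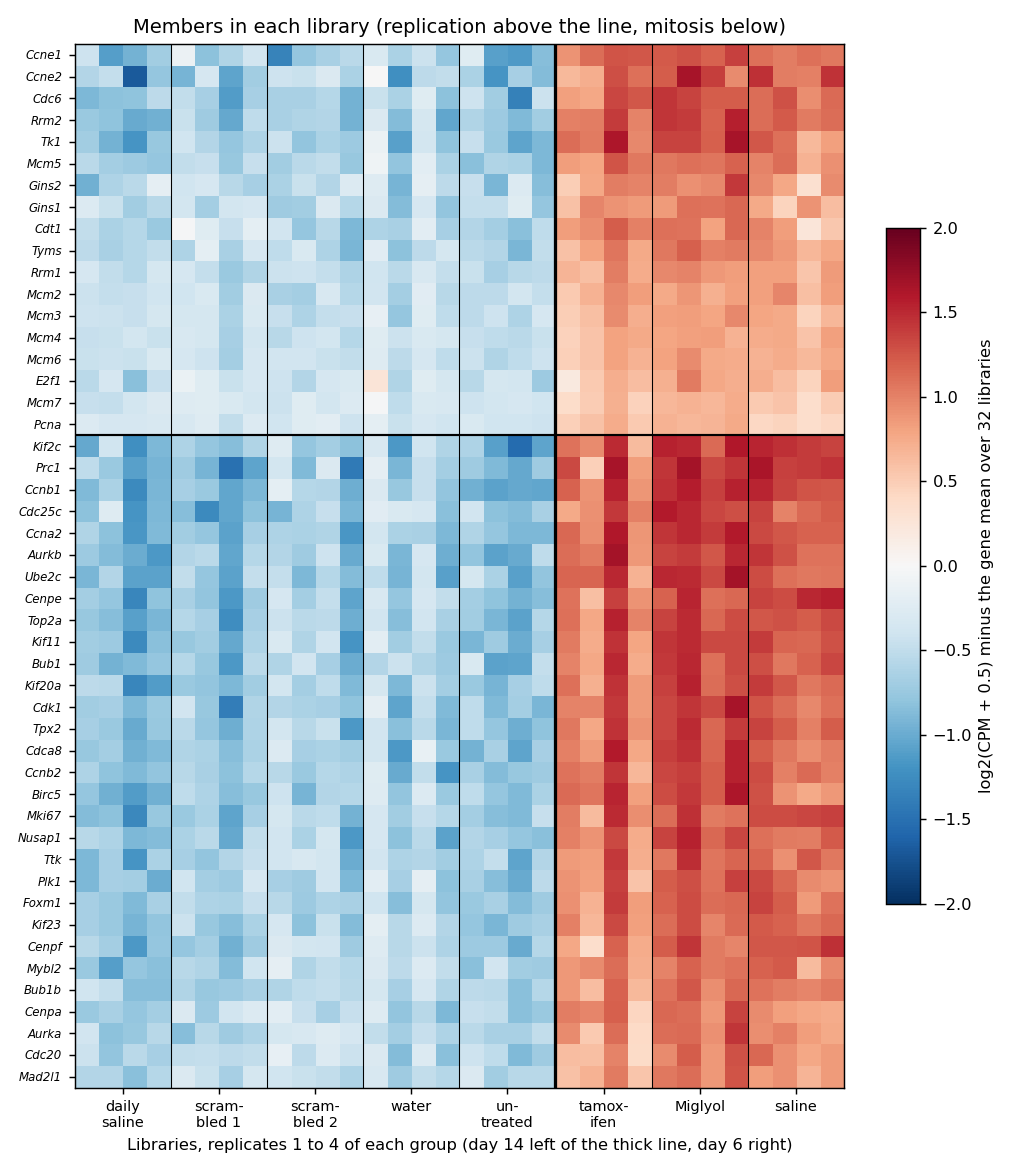
Level of each member (rows) in each library (columns), as log2(CPM + 0.5) minus the gene's mean over the 32 libraries, red above and blue below it, with replication genes above the horizontal line and mitosis genes below it. Day 14 libraries, left of the thick line, are blue and day 6 libraries are red in nearly every row, with E2f1 in water replicate 1 as a visible exception.

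Origin licensing was the role with the smallest median among the replication genes, at -1.23 over 8 genes. Its MCM subunits form the ring that unwinds DNA. Mcm5 ranged from 19.05 to 33.5 CPM with a median of 22.8 in the day 14 libraries, against 58.3 to 86.2 CPM with a median of 74.9 in the day 6 libraries. The ranges left a gap of 1.74-fold between the lowest day 6 and the highest day 14 library. Group means of Mcm5 at day 14 were 22.2 ± 1.65 in daily saline, 24.4 ± 2.41 in scrambled 1, 23.1 ± 2.08 in scrambled 2, 26.9 ± 6.32 in water and 21.3 ± 2.14 in untreated CPM, against 71.96 ± 11.04 in tamoxifen, 77.2 ± 2.97 in Miglyol and 69.1 ± 8.46 in saline CPM at day 6 (SD, n = 4 each). This gave a log2 fold change of -1.63 (SE 0.06, adjusted p = 2.39e-21) in edgeR. Mcm2 ranged from 24.7 to 34.3 CPM with a median of 28.97 in the day 14 libraries, against 58.3 to 79.5 CPM with a median of 71.6 in the day 6 libraries. Group means of Mcm2 at day 14 were 29.6 ± 0.822 in daily saline, 30.2 ± 3.75 in scrambled 1, 27.4 ± 3.23 in scrambled 2, 29.3 ± 4.099 in water and 28.9 ± 1.56 in untreated CPM, against 68.7 ± 8.96 in tamoxifen, 70.3 ± 3.798 in Miglyol and 71.1 ± 7.44 in saline CPM at day 6, with a log2 fold change of -1.27 (SE 0.05, adjusted p = 9.7e-22). In both MCM genes every day 14 group lay below all day 6 libraries. Mcm3, Mcm4 and Mcm6 fell by 1.19, 1.17 and 1.16 on the log2 scale, and Mcm7 by 0.91, among the smallest changes of all members. The loading factors changed more, since Cdc6, which places the helicase on the origin, averaged 3.95 ± 0.756 CPM at day 14 and 15.4 ± 2.19 CPM at day 6 (-1.96) and Cdt1, its partner, averaged 8.28 ± 1.46 CPM at day 14 and 23.2 ± 4.13 CPM at day 6 (-1.49). Reads of Mcm2 (85.8% unique) and Mcm7 (82.3% unique) are shared with other loci in part.

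The replisome genes included the member that changed least. Pcna, the sliding clamp that holds the polymerase on DNA, lies at chr2:132249286-132253180 in the files' coordinates. Pcna ranged from 74.8 to 91.96 CPM with a median of 83.2 in the day 14 libraries, against 134 to 178 CPM with a median of 155 in the day 6 libraries. Its ranges were apart, yet the lowest day 6 library was only 1.46-fold above the highest day 14 library. Group means of Pcna at day 14 were 84.2 ± 1.55 in daily saline, 83.4 ± 5.94 in scrambled 1, 84.6 ± 6.54 in scrambled 2, 82.98 ± 6.43 in water and 80.8 ± 2.905 in untreated CPM, against 158 ± 12.8 in tamoxifen, 171 ± 5.16 in Miglyol and 139 ± 3.595 in saline CPM at day 6. The log2 fold change was -0.90 (SE 0.03, edgeR adjusted p = 3.34e-23), and 47.1% of its reads were unique, so its level includes reads that also match other loci. Per kilobase of exon it was the most abundant member, with 66.02 at day 14 and 124 at day 6 CPM per kb. Gins1 and Gins2, parts of the GINS complex that joins the active helicase, fell by 1.5 and 1.51 on the log2 scale.

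Nucleotide supply genes fell by a median of 1.69 on the log2 scale. Rrm2 is the small subunit of ribonucleotide reductase, the enzyme that makes deoxynucleotides, and it is made anew in each S phase. Rrm2 ranged from 17.2 to 29.1 CPM with a median of 21.5 in the day 14 libraries, against 71.3 to 106 CPM with a median of 79.98 in the day 6 libraries. The lowest day 6 library lay 2.45-fold above the highest day 14 library, a wider gap than for Mcm5 or Pcna. Group means of Rrm2 at day 14 were 19.2 ± 1.71 in daily saline, 22.5 ± 3.97 in scrambled 1, 21.9 ± 2.49 in scrambled 2, 23.3 ± 5.98 in water and 21.4 ± 1.69 in untreated CPM, against 77.9 ± 11.6 in tamoxifen, 94.8 ± 10.0 in Miglyol and 78.6 ± 4.22 in saline CPM at day 6. Rrm2 had a log2 fold change of -1.95 (SE 0.06, adjusted p = 1.17e-21) in edgeR, against -1.31 for the large subunit Rrm1. Tk1, thymidine kinase, averaged 12.5 ± 2.395 CPM at day 14 and 47.3 ± 9.87 CPM at day 6 (-1.92, 80.7% unique reads), and Tyms, thymidylate synthase, changed by -1.47.

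Among the genes of S phase entry, both E cyclins, which activate Cdk2 at the start of S phase, had the largest changes of the replication genes, and E2f1 one of the smallest. Ccne1 ranged from 1.63 to 4.45 CPM with a median of 2.88 in the day 14 libraries, against 9.55 to 13.5 CPM with a median of 11.4 in the day 6 libraries. Its low level left few reads per library, but no library of either age crossed into the other's range. Group means of Ccne1 at day 14 were 2.66 ± 0.664 in daily saline, 3.42 ± 0.8096 in scrambled 1, 2.60 ± 0.685 in scrambled 2, 3.25 ± 0.546 in water and 2.63 ± 0.975 in untreated CPM, against 11.4 ± 1.33 in tamoxifen, 12.4 ± 0.739 in Miglyol and 10.8 ± 0.322 in saline CPM at day 6, with a log2 fold change of -1.99 (SE 0.09, adjusted p = 8.53e-20) in edgeR. Ccne2 changed by -1.97 (SE 0.11, 71.2% unique reads). E2f1 is a transcription factor that drives many S phase genes. E2f1 ranged from 8.13 to 17.9 CPM with a median of 11.6 in the day 14 libraries, against 17.3 to 31.2 CPM with a median of 24.8 in the day 6 libraries. Group means of E2f1 at day 14 were 10.2 ± 1.51 in daily saline, 12.2 ± 1.18 in scrambled 1, 11.1 ± 1.01 in scrambled 2, 12.9 ± 3.52 in water and 10.5 ± 1.34 in untreated CPM, against 21.8 ± 3.27 in tamoxifen, 26.7 ± 3.08 in Miglyol and 23.9 ± 2.78 in saline CPM at day 6. Its log2 fold change was -1.08 (SE 0.07, edgeR adjusted p = 1.5e-15), close to those of Mcm4 and Mcm6 and smaller than those of the E cyclins.

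The proliferation markers stood close to the mitosis median. Mki67 (chr7:135689782-135716408 in the files' coordinates) encodes Ki-67, which coats mitotic chromosomes and is found in cycling cells. Mki67 ranged from 65.9 to 128 CPM with a median of 99.98 in the day 14 libraries, against 249.5 to 452 CPM with a median of 374 in the day 6 libraries. The ages were apart by a gap of 1.95-fold. Group means of Mki67 at day 14 were 84.9 ± 12.95 in daily saline, 94.7 ± 12.01 in scrambled 1, 109 ± 18.1 in scrambled 2, 113 ± 12.03 in water and 98.4 ± 13.6 in untreated CPM, against 334 ± 85.1 in tamoxifen, 367 ± 51.8 in Miglyol and 406 ± 8.46 in saline CPM at day 6. The change was -1.89 on the log2 scale (SE 0.07, edgeR adjusted p = 2.32e-18), or 3.70-fold lower at day 14. Top2a, the topoisomerase that untangles sister chromatids, stood apart by age as well. Top2a ranged from 46.1 to 84.1 CPM with a median of 68.1 in the day 14 libraries, against 188 to 318 CPM with a median of 261 in the day 6 libraries. Group means of Top2a at day 14 were 58.4 ± 5.55 in daily saline, 64.3 ± 12.3 in scrambled 1, 71.7 ± 11.5 in scrambled 2, 74.3 ± 11.7 in water and 62.6 ± 9.801 in untreated CPM, against 239 ± 55.8 in tamoxifen, 276 ± 27.7 in Miglyol and 262 ± 8.51 in saline CPM at day 6, with a log2 fold change of -1.97 (SE 0.08, adjusted p = 1.3e-18). Per kilobase of exon Top2a had the highest level of the mitosis genes at both ages, with 12.7 at day 14 and 49.4 at day 6 CPM per kb, and Mki67 had 9.89 at day 14 and 36.5 at day 6 CPM per kb.

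Mitotic cyclins and Cdk1 had the lowest median of any role, -2.07 over 5 genes. Cdk1 is the kinase that drives entry into mitosis. Cdk1 ranged from 13.1 to 30.9 CPM with a median of 21.6 in the day 14 libraries, against 63.7 to 111 CPM with a median of 80.7 in the day 6 libraries. Group means of Cdk1 at day 14 were 20.7 ± 1.51 in daily saline, 20.9 ± 5.77 in scrambled 1, 21.98 ± 1.47 in scrambled 2, 22.9 ± 6.44 in water and 20.9 ± 2.92 in untreated CPM, against 74.8 ± 13.6 in tamoxifen, 96.2 ± 10.3 in Miglyol and 76.5 ± 6.44 in saline CPM at day 6. Every day 6 group mean lay above every day 14 group mean, with a log2 fold change of -1.93 (SE 0.08, adjusted p = 1.96e-18) in edgeR. Ccnb1, cyclin B1, is the partner of Cdk1 in mitosis. Ccnb1 ranged from 7.87 to 17.3 CPM with a median of 10.9 in the day 14 libraries, against 36.8 to 60.1 CPM with a median of 51.6 in the day 6 libraries. Group means of Ccnb1 at day 14 were 10.3 ± 1.92 in daily saline, 10.9 ± 1.28 in scrambled 1, 13.3 ± 3.06 in scrambled 2, 13.3 ± 2.298 in water and 9.45 ± 0.315 in untreated CPM, against 44.6 ± 10.2 in tamoxifen, 56.4 ± 3.68 in Miglyol and 51.1 ± 4.699 in saline CPM at day 6. It had a log2 fold change of -2.15 (SE 0.07, adjusted p = 1.19e-22), with 49.7% of its reads unique. Ccnb2 (100% unique reads), the second B cyclin, changed by -1.92, cyclin A2 (Ccna2, 75.9% unique) by -2.07, and Cdc25c, the phosphatase that activates Cdk1, by -2.15.

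Of the transcription factors, Foxm1 activates late cell cycle genes and Mybl2 encodes B-Myb, which works with it. Foxm1 ranged from 17.1 to 24.8 CPM with a median of 20.05 in the day 14 libraries, against 51.7 to 84.6 CPM with a median of 70.6 in the day 6 libraries. Group means of Foxm1 at day 14 were 19.0 ± 1.38 in daily saline, 21.6 ± 1.32 in scrambled 1, 20.3 ± 0.9995 in scrambled 2, 21.1 ± 3.82 in water and 18.8 ± 1.22 in untreated CPM, against 63.6 ± 14.5 in tamoxifen, 73.4 ± 4.36 in Miglyol and 70.5 ± 10.2 in saline CPM at day 6. The age ranges stood apart, with a log2 fold change of -1.78 (SE 0.06, adjusted p = 2.36e-22) in edgeR. Mybl2, with 58.5% unique reads, averaged 7.09 ± 1.203 CPM at day 14 and 22.2 ± 2.78 CPM at day 6 (-1.66). Mitotic kinases had a median of -1.79. Plk1 acts from mitotic entry to division of the cytoplasm. Plk1 ranged from 6.08 to 11.2 CPM with a median of 7.81 in the day 14 libraries, against 19.2 to 33.7 CPM with a median of 28.2 in the day 6 libraries. Group means of Plk1 at day 14 were 7.098 ± 0.854 in daily saline, 8.72 ± 1.26 in scrambled 1, 7.95 ± 1.28 in scrambled 2, 9.24 ± 2.13 in water and 7.403 ± 1.15 in untreated CPM, against 24.97 ± 6.13 in tamoxifen, 30.8 ± 2.62 in Miglyol and 27.6 ± 3.83 in saline CPM at day 6, with a log2 fold change of -1.78 (SE 0.08, adjusted p = 5.86e-20). Aurkb, the kinase of the chromosomal passenger complex, changed by -2.06, the checkpoint kinase Ttk by -1.80, and Aurka, which matures the spindle poles, by -1.54, one of the 3 smallest changes among mitosis genes.

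Among the spindle checkpoint and passenger genes the changes ran from -1.42 in Mad2l1, which holds the anaphase-promoting complex in check, to -1.94 in the kinetochore kinase Bub1. Bub1b, a checkpoint partner of Mad2l1, changed by -1.60, and the passenger genes Cdca8 and Birc5 by -1.92 and -1.90. Mad2l1 averaged 16.6 ± 1.74 CPM at day 14 and 44.6 ± 6.82 CPM at day 6, and its ranges did not overlap either. Of the genes of the anaphase-promoting complex, Cdc20, its activator, changed by -1.44 and Ube2c by -2.04. Cdc20 averaged 16.3 ± 2.37 CPM at day 14 and 44.5 ± 8.02 CPM at day 6. Ube2c averaged 10.8 ± 2.04 CPM at day 14 and 44.7 ± 8.09 CPM at day 6.

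Kinesins and spindle proteins held the 2 largest changes of all members. Kif2c (chr4:117159633-117182624 in the files' coordinates), a kinesin that takes microtubules apart at the kinetochore, averaged 5.81 ± 1.39 CPM at day 14 and 26.3 ± 4.94 CPM at day 6, with a log2 fold change of -2.18 (SE 0.09, adjusted p = 1.14e-19) in edgeR. Prc1 averaged 18.3 ± 4.39 CPM at day 14 and 81.6 ± 16.7 CPM at day 6 (-2.16, SE 0.11), with 43.8% unique reads. Kif11, which pushes the spindle poles apart, averaged 24.4 ± 4.61 CPM at day 14 and 94.7 ± 15.2 CPM at day 6 (-1.95), and Kif20a, Kif23, Tpx2 and Nusap1 changed by -1.94 to -1.75, Kif20a with 76.5% unique reads. Centromere proteins changed by -1.98 in Cenpe, a kinetochore motor, -1.75 in Cenpf, and -1.55 in Cenpa, the histone variant that marks the centromere.

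Mitosis and replication genes overlapped in the size of their change. Of the 18 replication genes, 4 (Ccne1, Ccne2, Cdc6 and Rrm2) changed by more than the mitosis median, and the smallest change of a mitosis gene (-1.42) was larger than that of 8 replication genes, all 6 MCM genes but Mcm5 among them.

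Other genes of the same pathways moved with the members, beside 31.3% of all tested genes that fell and 30% that rose. Their lists exclude the members and were chosen with earlier results of these data known. Of 45 other replication genes 43 fell and none rose (median -1.02), among them Uhrf1, which maintains DNA methylation on new strands (-2.02), Clspn, a fork protein of the checkpoint (-1.97), Mcm10, an origin firing factor (-1.90), and 2810417H13Rik (-3.22, 26.8% unique reads). Of 50 other mitosis genes 49 fell (median -1.76), including Cdca3 (-2.08), the kinetochore gene Nuf2 (-2.0), the kinase Melk (-1.99) and Cks2 (-1.98, 10.8% unique reads), while Pttg1, securin, rose by 0.29. E2F and DREAM genes were mixed, with 11 of 16 lower and 1 higher. The atypical repressors E2f8 and E2f7 fell by 1.98 and 1.71, Mybl1 by 1.16 and Lin9 of the DREAM core by 0.70, and Lin52 rose by 0.23.

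Genes from a list of cell cycle inhibitors ran the other way in most cases. This list also holds Mdm2, a negative regulator of p53, and Ccng1. Of its 20 genes, 19 were tested, 13 rose and 5 fell, with a median of 0.17, while 30% of all tested genes rose and 31.3% fell. Gadd45b and Gadd45a, both stress-inducible, rose by 0.69 and 0.43, the antiproliferative gene Tob1 by 0.39 and the Cdk4/6 inhibitor Cdkn2c by 0.36. Rbl1, the p107 pocket protein, fell by 1.01, Cdkn2d by 0.54, Cdkn1c by 0.40 and Trp53 by 0.24. Of 10 D cyclins and G1 kinases, 3 rose and 3 fell with a median of 0.01, where Cdc25a (-0.67), Cdk2 (-0.66) and Cdk4 (-0.65) were lower and Cdk6 (0.25), Ccnd3 (0.11) and Ccnd2 (0.10) higher at day 14. The intron reads of Cdkn2c went the other way (-0.33), and so did those of Cdkn2d (0.04) and Lin52 (-0.08), and Ccnd3 and Cdkn2c also turned in single pairs of groups.

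Markers of several cell types moved between the ages as well. All 10 endothelium markers rose (median 0.44), as did 8 of 8 B cell markers (1.09) and 9 of 9 tested T and NK cell markers (0.60). Erythroid markers fell in 8 of 8 tested of 10 found (median -1.11), with sums of 136 to 296 CPM at day 14 and 185 to 394 CPM at day 6, and no erythroid gene was at 0 in all libraries of an age. Of 9 neutrophil and myeloid precursor markers 4 were tested and 3 fell, with sums of 3.32 to 26.5 CPM at day 14 and 12.1 to 216 CPM at day 6, and none was at 0 in all libraries of an age. Fits of day 14 alone tested 7 erythroid and 2 of these myeloid markers. Some thus passed the filter here through their day 6 level, which favours falls in these counts. Macrophage markers had 6 falls and 2 rises among 11 (median -0.34), and thymocyte markers 4 rises among 6 tested of 10 (median 0.40). Fits of day 6 alone tested 5 thymocyte markers, so the filter favours rises in that list. Of its 10 genes, 4 averaged under 1 CPM at day 14 and 5 at day 6. Lung epithelium markers had 3 rises and 2 falls among 12, and mesenchyme markers 5 rises and 3 falls among 12. Fat markers had 5 rises among 6 tested of 8 (median 3.17), and skeletal muscle markers 1 rise and 1 fall among 7 tested of 12. Fat marker sums had a median of 18.7 and a maximum of 561 CPM at day 14, against 10.6 and 15.9 CPM at day 6. Fits of day 6 alone tested 1 fat marker, so the filter favours rises there too. Beside these counts, 30% of all tested genes rose and 31.3% fell. The part of these cell types in the change of the cycle genes was not tested. Without the whole tamoxifen group 48 of 48 members fell, beside 29% of all genes. The myeloid markers in the remaining day 6 libraries summed to 20.4 to 37.1 CPM in Miglyol and 12.1 to 14.7 CPM in saline, and their part was not tested this way either.

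Within day 14 no member passed the threshold of edgeR in any of 6 comparisons. Over all tested genes the median log2 fold change lay between -0.005 and 0.022 in the 9 comparisons within an age. Daily saline had mitosis sums of 565, 545, 438 and 517 CPM in its 4 libraries, water 737, 538, 682 and 555 CPM, and untreated 588, 529, 486 and 586 CPM. The groups overlapped, and water replicates 1 and 3 were the highest of the 12. In daily saline against untreated, which asks what daily injections do, 0 of 48 members passed with edgeR or DESeq2, beside 0.233% of all genes called with edgeR. An unadjusted p under 0.05 was found for 0 members and for 9.24% of all genes. The members' median log2 fold change was -0.02, with 29 below 0 and 19 above, beside 49.5% of all genes below 0. The smallest p belonged to Birc5 (9.78 ± 1.02 CPM in daily saline and 11.7 ± 1.41 in untreated, log2 fold change -0.26, SE 0.14, edgeR adjusted p = 0.61), Mybl2 (-0.23) and Mki67 (-0.21).

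Water against untreated gave 0 of 48 members past the threshold with edgeR and with DESeq2, beside 0.0494% of all genes called with edgeR. An unadjusted p under 0.05 was found for 7 members (14.6%) and for 8.09% of all genes. Of 48 members 47 lay above 0, beside 51.1% of all genes, with a median of 0.16. The members moved together by library, so this count does not weigh 48 separate genes. In water replicate 1, 47 of 48 lay above the water mean, and in water replicates 2 and 4 only 3 each. Ccnb1 had 16.04, 11.5, 14.3 and 11.2 CPM in water, against 9.88, 9.13, 9.44 and 9.36 CPM in untreated, and the groups did not overlap (0.49, SE 0.15, edgeR adjusted p = 0.326). Kif23 (0.38) and Mcm5 (0.34) followed. A model that includes Xist gave a median of 0.10, and the median was 0.11 without water replicate 1 and 0.12 without water replicate 3. Water replicate 3 is the library with muscle, fat and lymphocyte markers described above, and the part of those markers was not tested beyond leaving it out.

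Daily saline against water shares these water libraries. Of 48 members 0 passed with edgeR and 1 with DESeq2, beside 2.74% of all genes called with edgeR. An unadjusted p under 0.05 was found for 12 members (25.0%) and for 17.7% of all genes. All 30 mitosis genes and 14 of 18 replication genes lay below 0, beside 51.2% of all genes, with medians of -0.27 and -0.11. Mybl2 had 5.76 ± 0.67 CPM in daily saline and 8.15 ± 0.822 CPM in water, with no overlap (-0.50, SE 0.15, edgeR adjusted p = 0.061), and Birc5 (-0.47) and Kif23 (-0.40) came next. The members' median of -0.25 was -0.14 without water replicate 1, -0.17 without water replicate 3 and -0.16 without daily saline replicate 3. The intronic share of reads, one sign of RNA make-up, was 8.69% to 11.2% in daily saline and 12.9% to 16.04% in water. With that share as a covariate the members' median was -0.34. The ranges did not overlap, so in this comparison the share and the groups cannot be fully told apart. With Xist as a covariate the members' median was -0.15. Markers of blood cells moved with this comparison, since 4 of 9 tested T and NK cell markers fell (median -0.68, Lat by 1.04), 2 of 8 B cell markers fell (median -0.27) and 1 of 6 tested thymocyte markers fell (median -0.70). The T and NK cell markers summed to 25.4 to 35.6 CPM in daily saline and 39.4 to 69.9 CPM in water, and no marker of these 3 lists rose. Their part in the members' values was not tested. From the other lists Cdc7 (-0.54), Pkmyt1 (-0.57) and Cdk2 (-0.25) fell and Cdkn2c (0.28) rose.

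No member passed for either scrambled oligonucleotide against the water in which it was dissolved. In scrambled 1 against water 0 of 48 passed with edgeR and DESeq2, the median was -0.09 and 0.12% of all genes were called with edgeR. An unadjusted p under 0.05 was found for 6 members (12.5%) and for 11.0% of all genes. Cenpf had 23.8, 25.5, 20.8 and 24.8 CPM in scrambled 1, against 34.3, 27.8, 30.2 and 26.7 CPM in water, without overlap (-0.33, SE 0.12, edgeR adjusted p = 0.299), and Cdc25c (-0.70) and Cenpe (-0.35) were next by p. Scrambled 1 replicate 3 was the lowest library of its group for 39 of 48 members. The direction of the median rested on single libraries, since it was 0.01 without water replicate 1, -0.04 without scrambled 1 replicate 3 and -0.17 without water replicate 2. In scrambled 2 against water 0 of 48 passed with edgeR and DESeq2, the median was -0.06 and 0% of all genes were called with edgeR. An unadjusted p under 0.05 was found for 1 member (Aurka, 0.26) and for 5.32% of all genes. Mcm4 (-0.14) and Kif23 (-0.21) had the next smallest p. Without water replicate 1 the median was 0.02, with 28 of 48 members above 0, and without water replicate 3, or without scrambled 2 replicate 4, 25 of 48 lay below 0. Scrambled 1 against scrambled 2, oligonucleotides of different design at the same dose, gave 0 of 48 members with edgeR and DESeq2, a median of -0.06 and 0.205% of all genes called with edgeR. An unadjusted p under 0.05 was found for 3 members (6.25%) and for 10.9% of all genes. Aurka had 6.79, 8.36, 7.51 and 8.06 CPM in scrambled 1 and 9.78, 9.98, 10.5 and 9.82 CPM in scrambled 2, without overlap (-0.38, SE 0.12, edgeR adjusted p = 0.231), followed by Cdt1 (0.43) and Cenpf (-0.35). A p that misses the threshold does not show that the oligonucleotides act alike.

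At day 6, 1 member passed the threshold in the comparison of the oil with saline. In Miglyol against saline, Pcna had 170.1, 166, 169 and 178 CPM in Miglyol, against 140.3, 142, 134 and 140.0 CPM in saline. The groups did not overlap, and Pcna rose by 0.29 on the log2 scale (SE 0.06, edgeR adjusted p = 0.0106). It was the only one of 48 members past the threshold, beside 3.33% of all genes that rose and 10.6% called in either direction. The count was 2 without Miglyol replicate 3, 3 without saline replicate 1 and 14 when only these 8 libraries were fitted. The share of all genes called in these fits is not given, so these counts show only the dependence on the fit. Of the members 42 lay above 0, with medians of 0.19 for replication genes and 0.14 for mitosis genes. Cdk1 had 89.7, 95.7, 88.6 and 111 CPM in Miglyol, against 84.6, 76.7, 68.9 and 75.9 CPM in saline, without overlap but past no threshold (0.32, SE 0.11, adjusted p = 0.0607). Outside the members, 8 of 45 other replication genes rose, including Chaf1b (0.43) and Rfc2 (0.39), which act in chromatin assembly and clamp loading, Rpa3 (0.42) and the licensing inhibitor Gmnn (0.41). Of 50 other mitosis genes 6 rose, among them the Cdk1-inhibiting kinase gene Pkmyt1 (0.63), Spc24 (0.55) and Spc25 (0.41) of the kinetochore, and Pbk (0.41), and Cdk2 rose by 0.25. The intronic share was 11.4% to 14.3% in Miglyol and 13.9% to 16.1% in saline, and with that share as a covariate 0 members and 2 of all genes were called.

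Tamoxifen against Miglyol, which separates the compound from its oil, placed all 48 members below 0 and none past the threshold with edgeR (4 with DESeq2). In this comparison 22 members (45.8%) had an unadjusted p under 0.05, beside 19.6% of all genes. Over all genes 51.2% lay below 0, and 1.96% fell past the threshold with edgeR. The medians were -0.17 for replication genes and -0.30 for mitosis genes. Mad2l1 (40.1 ± 6.63 CPM in tamoxifen and 51.0 ± 5.61 in Miglyol, -0.34, SE 0.10, edgeR adjusted p = 0.0562), Cdk1 (-0.36) and Cdc20 (-0.41) had the smallest p.

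One library carried much of the spread after tamoxifen. Cdk1 had 70.2, 70.4, 94.7 and 63.7 CPM in tamoxifen, and Ccnb1 had 45.6, 37.3, 58.5 and 36.8 CPM in tamoxifen, against 55.3, 60.1, 51.8 and 58.5 CPM in Miglyol. Replicate 3 was the highest tamoxifen library for 47 of 48 members, with a mitosis sum of 2503 CPM against 1884, 1575 and 1637 CPM in the other 3. Without it 24 members fell in tamoxifen against Miglyol, 22 mitosis and 2 replication genes (Rrm2 and Tyms), beside 1.91% of all genes. Without tamoxifen replicate 3 the medians were -0.24 for replication genes and -0.46 for mitosis genes, with Kif11 at -0.53, Cdk1 at -0.49 and Ccnb1 at -0.50. Replicate 3 was singled out by its high values of these same genes, so leaving it out favours lower values in tamoxifen, and these counts show only how far the comparison rests on 1 library. With that library kept and Miglyol replicate 3 left out, 3 members fell.

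**Figure D4:**
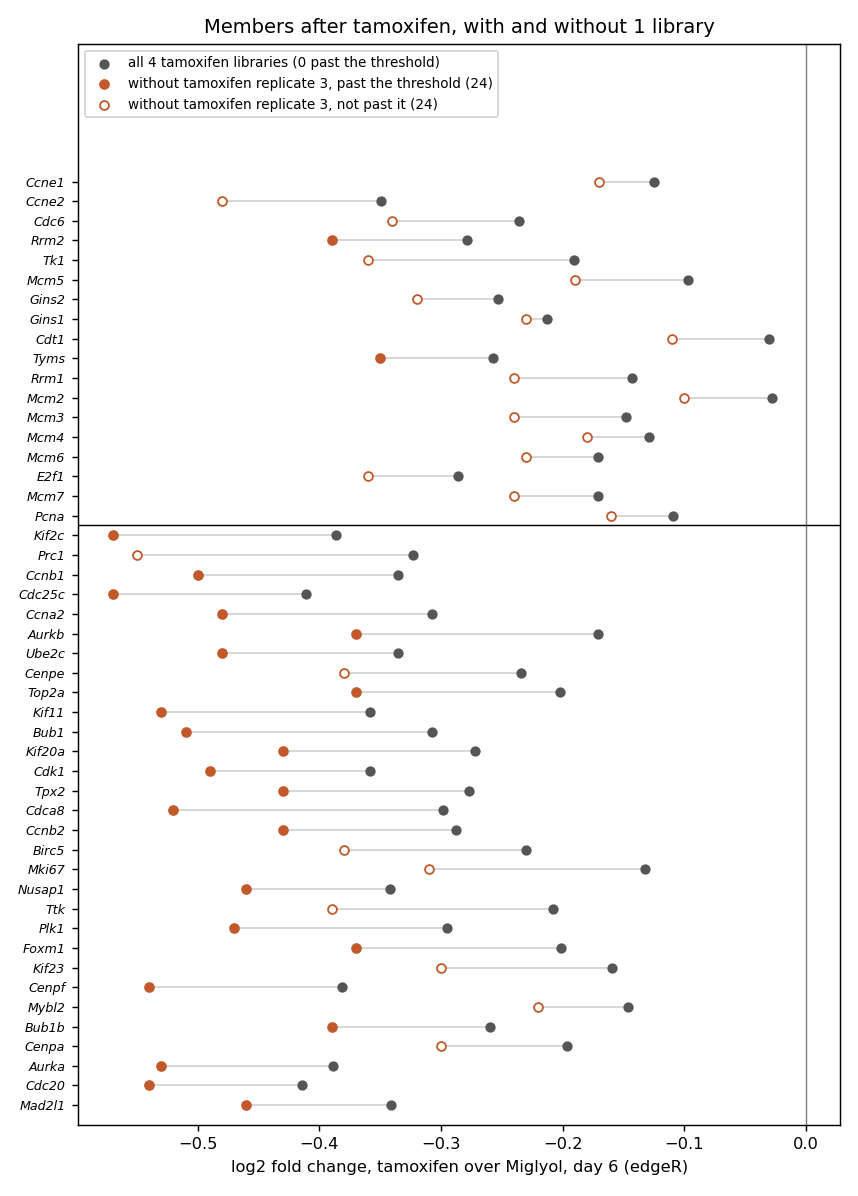
Log2 fold change of each member, tamoxifen over Miglyol at day 6, with all 4 tamoxifen libraries (grey) and without tamoxifen replicate 3 (orange, filled where past the threshold), with replication genes above the line and mitosis genes below it. Every member lies left of 0 in both, and the number past the threshold is 24 without replicate 3, a library singled out by its high values of these genes, and 0 with it.

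Replicate 3 also had the highest sum of neutrophil and myeloid precursor markers, 216 CPM against 49.9 to 149 CPM in the other tamoxifen libraries, 20.4 to 37.1 CPM in Miglyol and 12.1 to 14.7 CPM in saline, and the lowest erythroid sum at day 6, 185 CPM. Of those 9 myeloid markers 3 were tested and 3 rose in tamoxifen against Miglyol (Camp by 2.55, Ngp by 2.43 and Ltf by 2.21), no marker was at 0 in all tamoxifen or all Miglyol libraries, and 5 of 9 averaged under 1 CPM in tamoxifen. Of 11 macrophage markers 6 rose, beside 3.71% of all genes that rose. Their part in the members' values was not tested.

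Tamoxifen against saline shares the tamoxifen libraries with that comparison, and its saline group with the test of the oil. Of 48 members 1 rose and 2 fell, beside 11.3% and 12.3% of all genes. Cenpf had 70.4, 52.6, 94.1 and 68.9 CPM in tamoxifen, against 98.2, 97.3, 99.3 and 114 CPM in saline, and fell by 0.52 (SE 0.15, edgeR adjusted p = 0.0221) with no overlap. Cenpe had 55.4, 39.7, 67.7 and 48.7 CPM in tamoxifen, against 67.1, 65.05, 74.4 and 77.1 CPM in saline, and fell by 0.43 (SE 0.14, edgeR adjusted p = 0.0338), with replicate 3 inside the saline range. Pcna had 146, 159, 176 and 152 CPM in tamoxifen and rose by 0.18 (SE 0.06, edgeR adjusted p = 0.0345) over the saline values given above. Medians were 0.01 for replication genes and -0.14 for mitosis genes. Without tamoxifen replicate 3 they were -0.07 and -0.30, 15 mitosis genes and no replication gene fell, beside 9.93% of all genes, and Pcna no longer passed. With the intronic share as a covariate none of the 3 passed (Cenpf -0.34, Cenpe -0.27 and Pcna 0.13), and with unique reads alone the rise of Pcna did not pass (adjusted p = 0.0948 in edgeR). Without saline replicate 4 no member passed, and 1 passed without tamoxifen replicate 1, without tamoxifen replicate 2 or without saline replicate 3.

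Other cycle genes past the threshold after tamoxifen differed in share between the lists. Against Miglyol, 4 of 50 other mitosis genes, 1 of 19 inhibitors and none of 45 other replication genes fell, and 1 inhibitor rose, beside 1.96% and 3.71% of all genes that fell and rose. Of these, Spc24 (-0.57), Cks2 (-0.54), Melk (-0.46) and Spc25 (-0.41) fell, Cdkn2c fell by 0.48, and Cdkn1a, the p21 inhibitor of cyclin-dependent kinases, rose by 0.45. Against saline, 4 of 50 other mitosis genes fell and 2 rose, and 2 of 45 other replication genes rose, which is below the 12.3% and 11.3% of all genes. Among them, Casc5 (-0.82), Aspm (-0.55), Sgol2a (-0.37) and Smc2 (-0.28) fell, Pkmyt1 (0.51), Pttg1 (0.44), Rpa3 (0.34) and Rfc2 (0.26) rose, and 5 of 19 inhibitors rose, Cdkn1a by 0.53, Gadd45g by 0.50, Cdkn2b by 0.34 and Cdkn1c by 0.30 among them. Of 10 D cyclins and G1 kinases 3 fell against saline, Cdk7 (-0.34), Ccnd1 (-0.29, 66.8% unique reads) and Cdk6 (-0.26). Of 16 E2F and DREAM genes 1 fell, Tfdp2 (-0.22), beside 12.3% of all genes. Without tamoxifen replicate 3 the other mitosis genes that fell numbered 31 of 50 against Miglyol and 16 of 50 against saline, beside 1.91% and 9.93% of all genes. Other replication genes that fell then numbered 2 and 1 of 45. Of 19 inhibitors 3 rose and 1 fell against Miglyol, and 6 rose and 2 fell against saline. Of 16 E2F and DREAM genes 2 fell against saline. Of the genes named here Rpa3 and Rfc2 no longer passed. That library was singled out by high values of the members, so leaving it out favours lower values of such genes in tamoxifen.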

How the data were processed

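Polyadenylated RNA was sequenced from TruSeq Stranded mRNA libraries per the labels' protocols, with demultiplexing in bcl2fastq 2.0 named by the submitters' processing notes. Aligner, build and strand handling were not given in these sources. The deposited counts of total exon reads per gene, made by the authors, were used, with the authors' deposited counts of unique exon, intron and gene reads beside them. Deposited TPM and RPKM values of the authors were not used.

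The fits used edgeR 4.0.16 (R 4.3.3) with TMM scaling (filterByExpr, robust quasi-likelihood F tests, Benjamini-Hochberg over all tested genes, threshold 0.05). The age contrast, the mean of 5 day 14 groups minus the mean of 3 day 6 groups, came from all 32 libraries, and the 9 comparisons within an age from a fit per age. CPM are TMM-scaled over 32 libraries, and the SE is the absolute log2 fold change over the square root of F. DESeq2 1.42.0 was an alternative. On simulated counts for day 14 against day 6 (14406 genes) 90% of 1.5-fold and 98% of 2-fold changes were found, with 9 false among 197 calls, and for tamoxifen against Miglyol (14107 genes) 75% and 94%, with 5 false among 174. Members with under 90% unique exon reads are described as sharing reads.

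The members, lists and tests were chosen with earlier results of these data known. The text names 12 landmark members by group, the 3 largest and 3 smallest changes of each class, at most 2 more of each role, the members past the threshold or the 3 with the smallest p within an age, and up to 4 genes per direction of each other list. The other members are given briefly to account for all of them.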

Additional observations from a re-analysis of the deposited data

Results flagged for a closer look

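In 112 sets of 4 libraries (12 landmark members and 2 sums in 8 groups), 7 had 1 library far from the other 3 by Dixon's ratio, which chance does in about 1 set in 20. Tamoxifen replicate 3 had the highest Rrm2 of its group, 95.3 CPM, with the next at 72.8 CPM. Miglyol replicate 2 had the highest Mki67, 444 CPM, with the next at 350 CPM. Scrambled 1 replicate 3 stood out 3 times as the lowest of its group, with 46.1 CPM of Top2a, 20.8 CPM of Mcm5 and a replication sum of 393 CPM. Scrambled 2 replicate 4 had the lowest Rrm2, 18.2 CPM, with the next at 22.7 CPM. Untreated replicate 1 had the highest Pcna, 85.1 CPM, with the next at 79.8 CPM.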

How the results depend on the processing

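Every member tested was lower at day 14 under each alternative tried (46 of 46 with intron reads, 48 of 48 in the rest) and with any 1 library left out (48 to 48). Counts within an age moved, and they are given here without the share of all genes called under the same setting. In daily saline against water (0) it was 1 with library totals, 2 with the replicate block and 1 with DESeq2. In Miglyol against saline (1) it was 3 with library totals, 6 with Xist in the model, 0 with the intronic share in it, 4 with DESeq2, 3 with all 32 libraries in 1 fit and 14 with only the 8 libraries compared. In tamoxifen against Miglyol (0) it was 1 with unique reads, 3 with Xist, 1 with the intronic share, 4 with DESeq2 and 3 with all 32 libraries. In tamoxifen against saline (3) it was 0 with the intronic share, 1 with the replicate block, 2 without the filter on low counts or with only the 8 libraries, and 4 with Xist or all 32 libraries; with unique reads it was 3, all lower, without Pcna. With a library left out, the count was 1 to 3 for Miglyol against saline, 0 to 24 for tamoxifen against Miglyol (24 without tamoxifen replicate 3, 3 without Miglyol replicate 3), 0 to 15 for tamoxifen against saline, and 0 to 0 elsewhere. The causes were not tested. Replicate numbers were not used as pairs, since deviations of same-numbered libraries correlated at -0.39 to 0.49 and no comparison had all 4 pairs above 0.1; 3 of 4 were above it in daily saline against untreated (0.01 to 0.26) and in scrambled 2 against water (0.02 to 0.34). Between the ages Cdkn2c turned to -0.328 with intron reads and -0.052 for water against Miglyol, Cdkn2d to 0.037 and Lin52 to -0.08 with intron reads, and Ccnd3 to -0.029 for water against tamoxifen and -0.053 for water against Miglyol. Of the other values for single genes, 4906 kept their direction and side of the threshold, 104 lost the threshold and 17 gained it. Library totals moved the median of all genes between the ages to -0.05. With 4 libraries a group, the spread limits what small differences can be seen.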
